A study of Mus musculus with 72 samples.

Results

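Mitochondrial ribosomal protein genes encode the protein subunits of the ribosome inside mitochondria. They were chosen here by symbol, as every gene whose symbol is Mrpl or Mrps followed by a number and at most 1 letter, and 78 of the 56691 genes listed met that rule. Of these, 49 carried large subunit symbols (Mrpl) and 29 small subunit symbols (Mrps). All 78 passed the filter on low counts and were among the 18727 genes tested, so no member was lost to it.

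The libraries came from mouse ovarian follicles at the early secondary stage, in which an oocyte is enclosed by layers of granulosa cells. Follicles were kept for 24 h with FSH21 (the hypoglycosylated form of follicle-stimulating hormone) at 10 ng/ml, FSH24 (the fully glycosylated form) at 10 ng/ml, FSH21 at 1 ng/ml, FSH24 at 1 ng/ml, or no FSH. All groups shared the same growth medium with serum albumin, fetuin and an insulin-transferrin-selenium supplement, and the labels name no strain or age. Each of the 6 groups had 3 libraries; libraries with 10 ng/ml and one untreated set carried numbers 2, 3 and 4, libraries with 1 ng/ml and the other untreated set carried 1, 5 and 6, and each dose was set against the untreated libraries of its own numbers.

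Mammalian mitochondria translate only a handful of messages, all of them for subunits of the respiratory chain and the ATP synthase. Their ribosome is built from ribosomal RNA made in the mitochondrion and from proteins that are encoded in the nucleus, made in the cytosol and imported. Some of these proteins descend from bacterial ribosomal proteins and others were added to the ribosome in mitochondria. In the ovary, oocytes are known for their large store of mitochondria, and granulosa cells for the mitochondrial first step of steroid synthesis. FSH binds its receptor on granulosa cells and raises cAMP.

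Totals ran between 17512921 and 22509689 counts per library. The 78 genes drew between 38633 and 51841 counts in a library. All 10 oocyte markers and all 8 granulosa markers passed the filter, whereas none of the 3 red blood cell markers and 1 of 5 immune markers did. Pairs of libraries of a group differed with 8.74 to 23.2 times the variance of Poisson sampling. Libraries are labelled biological replicates, but no animal or culture is named for them, so p-values here measure only how these libraries spread. In whole follicles, fewer cells of a type and less RNA per cell cannot be told apart.

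At 10 ng/ml of either form most of the family stayed close to the untreated level, and 4 genes passed the test. In follicles with FSH21 at 10 ng/ml, Mrps11 rose and Mrps9, Mrps30 and Mrps17 fell. In follicles with FSH24 at 10 ng/ml, Mrps11 rose and Mrps9 and Mrps30 fell. The changes were modest, 1.34-fold and 1.28-fold higher for Mrps11 and between 0.81 and 0.87 of the untreated level for the falls. Calls are at an adjusted p under 0.05 in edgeR's quasi-likelihood test, with Benjamini-Hochberg adjustment over the 18727 genes. With FSH21, 1 member was called higher, against 5.96% of all genes, and 3 lower, against 4.21% of all genes. With FSH24, 1 was called higher, against 5.12% of all genes, and 2 lower, against 3.30% of all genes. As shares of the members these counts lay below the share of all genes in each direction. DESeq2 called the same genes for each form.

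Mrps11 encodes a small subunit protein of bacterial descent that lies on the platform of the subunit, near the exit path of the message. Its level was 32.2, 32.7 and 35.2 CPM (counts-per-million, with library totals adjusted by the TMM method) with FSH21 at 10 ng/ml, 31.9, 32.9 and 30.7 CPM with FSH24 at 10 ng/ml, and 24.0, 25.7 and 24.9 CPM in untreated libraries 2, 3 and 4. Every treated library lay above every untreated one. With FSH21, 5 of 78 members and 15.7% of all genes lay wholly above the untreated libraries, and with FSH24 3 members and 13.8%. Such separation comes from the same values as the test. The log2 fold change of Mrps11 was 0.42 (SE 0.08, adjusted p = 0.00181) with FSH21 and 0.36 (SE 0.08, adjusted p = 0.00822) with FSH24, by edgeR's quasi-likelihood test. At 1 ng/ml the libraries overlapped, with 25.8, 27.3 and 25.7 CPM with FSH21, 25.3, 29.9 and 26.1 CPM with FSH24 and 26.5, 26.6 and 22.7 CPM in untreated libraries 1, 5 and 6. There the log2 fold changes were 0.06 (SE 0.08) and 0.10 (SE 0.08), with adjusted p = 0.970 and 0.877. The effect at 10 ng/ml minus that at 1 ng/ml was 0.37 on the log2 scale for FSH21 (SE 0.11, adjusted p = 0.324) and 0.25 for FSH24 (SE 0.11, adjusted p = 0.298), so no difference between doses was called.

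Mrps11 (chr7:78783119-78792989, plus strand, GRCm38) starts within the neighbouring member Mrpl46 (chr7:78775236-78783531, minus strand), a large subunit gene read in the opposite direction. The starts of the pair are arranged head to head, and 8.0% of the exon bases of Mrps11 are shared with Mrpl46. Mrpl46, looked at after its values were seen because of this arrangement, was at 11.2, 10.6 and 13.3 CPM with FSH21 at 10 ng/ml, 12.9, 11.9 and 10.0 CPM with FSH24 and 12.7, 10.7 and 13.97 CPM untreated. Its groups overlapped, and its log2 fold changes were -0.09 (SE 0.14, adjusted p = 0.788) and -0.10 (SE 0.14, adjusted p = 0.776). Whether the counting used strand was not given in the sources used here, so reads from the shared bases cannot be told apart.

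The genes that fell were of both subunits. Mrps9 encodes a protein of the head of the small subunit whose bacterial relative reaches towards the transfer RNA. Mrps9 was at 30.5, 33.1 and 34.0 CPM with FSH21 at 10 ng/ml, 30.6, 34.8 and 30.4 CPM with FSH24 and 39.2, 39.5 and 39.2 CPM untreated, and treated and untreated libraries did not overlap. Its log2 fold change was -0.27 (SE 0.08, adjusted p = 0.0357) with FSH21 and -0.30 (SE 0.08, adjusted p = 0.0238) with FSH24. Wholly below the untreated libraries lay 9 of 78 members and 12% of all genes with FSH21. With FSH24 these were 12 members and 10.7% of all genes. Mrps30 is named for the small subunit, but its protein sits in the large subunit and has no bacterial relative. Its level was 30.9, 30.3 and 31.7 CPM with FSH21, 30.0, 30.5 and 30.4 CPM with FSH24 and 38.7, 35.4 and 35.1 CPM untreated, again without overlap. The log2 fold changes of Mrps30 were -0.23 (SE 0.07, adjusted p = 0.0474) and -0.27 (SE 0.07, adjusted p = 0.0273).

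Mrps17 encodes a small subunit protein that binds the ribosomal RNA early in assembly in bacteria. Mrps17 was at 36.5, 35.4 and 38.2 CPM with FSH21 at 10 ng/ml, 35.97, 37.5 and 39.9 CPM with FSH24 and 43.3, 42.7 and 41.2 CPM untreated. Every treated library was again below every untreated one, and the log2 fold change was -0.21 (SE 0.06, adjusted p = 0.0402) with FSH21 and -0.17 (SE 0.06, adjusted p = 0.123) with FSH24. FSH21 against FSH24 gave -0.04 for Mrps17 (95% interval -0.18 to 0.09, adjusted p = 1), so no difference between the forms was called. The comparisons with FSH21 and FSH24 used the same 3 untreated libraries and are not independent of each other.

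The rise of Mrps11 stayed called without any 1 of the 6 libraries, with the highest adjusted p at 0.0146 for FSH21 and 0.0467 for FSH24. In fits without 1 library, the falls kept their calls only in part or not at all. With FSH21, Mrps9 and Mrps30 lost their call without any 1 of the 6 libraries compared (adjusted p between 0.0555 and 0.120 for Mrps9 and between 0.0504 and 0.142 for Mrps30), and Mrps17 lost it without each library except untreated number 4 (highest adjusted p 0.123). With FSH24, Mrps9 lost its call without treated number 2 or 4 (adjusted p = 0.0790 and 0.0873), and Mrps30 without treated number 2, 3 or 4 or untreated number 2 (highest adjusted p 0.0956). All of these fits kept the direction.

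**Figure D1:**
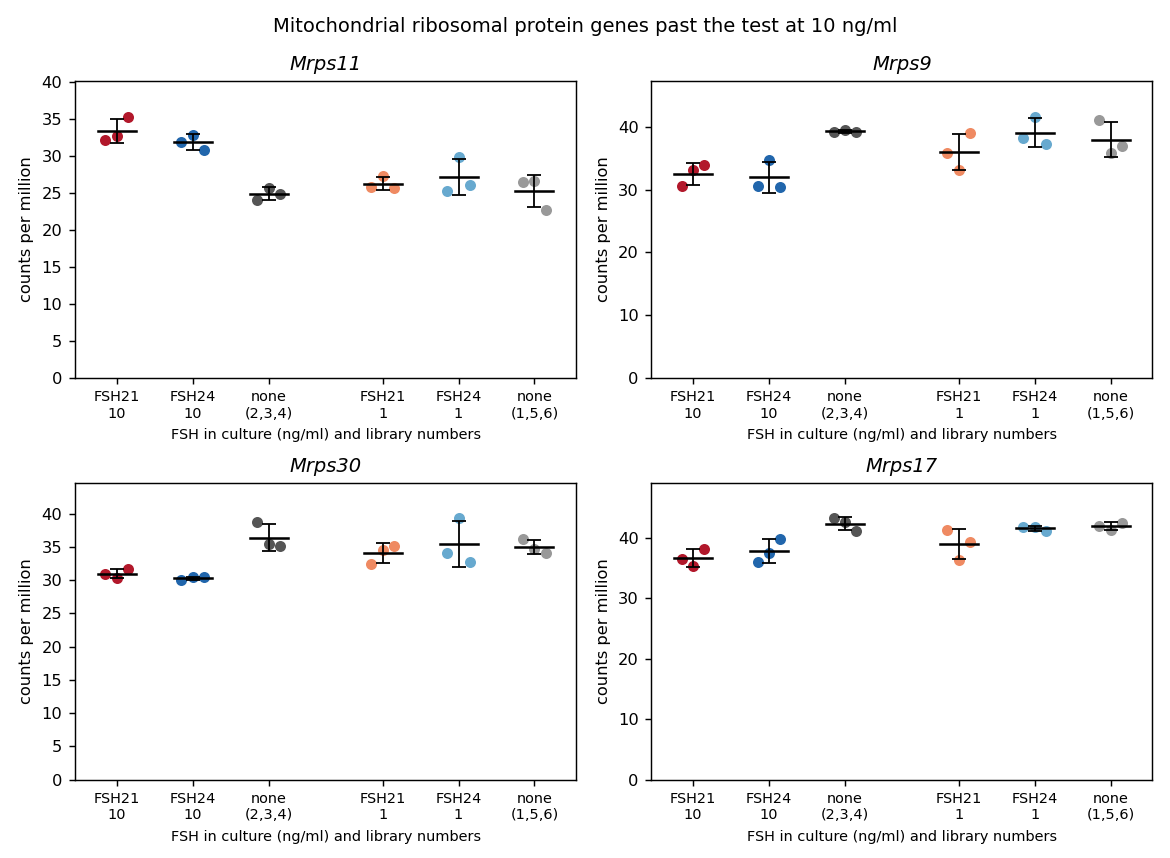
CPM of Mrps11, Mrps9, Mrps30 and Mrps17 in each library (points), with the mean (line) and SD (bars, n = 3) of each group; the axis under each panel gives the FSH form and its dose in ng/ml, with "none" for untreated libraries and their numbers. Mrps11 is at 30.7 CPM or more in all 6 libraries with 10 ng/ml and at 25.7 CPM or less in untreated libraries 2, 3 and 4, and the other 3 genes are lower with 10 ng/ml than in those untreated libraries.

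The remaining members changed little at 10 ng/ml. With FSH21, 33 of the 78 had a log2 fold change above 0 and 45 below, with a median of -0.01, against a median of 0.00 over all genes. At an unadjusted p under 0.05 there were only the 4 called members, 1 higher and 3 lower, where 12.4% of all genes were higher and 9.65% lower at that p. With FSH24, 15 lay above 0 and 63 below, with a median of -0.08, against 0.00 over all genes. At an unadjusted p under 0.05 there were 1 higher, where 2242 of the 18727 genes were, and 10 lower, against 8.78% of all genes; in either direction 20.8% of all genes met that p. Besides the called genes, these 10 were Mrpl12, Mrpl15, Mrpl30, Mrpl52, Mrps17, Mrps24, Mrps26 and Mrps35, named after their values were seen. The 95% interval of the log2 fold change lay within 0.5 of 0, which is 1.41-fold, for 76 of 78 members with FSH21 and 73 of 78 with FSH24. With FSH21 the exceptions were Mrps11 and Mrpl23, and with FSH24 they were Mrps11, Mrpl15, Mrpl23, Mrps24 and Mrps6. The widest intervals belonged to Mrpl23, which had the fewest reads.

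**Figure D2:**
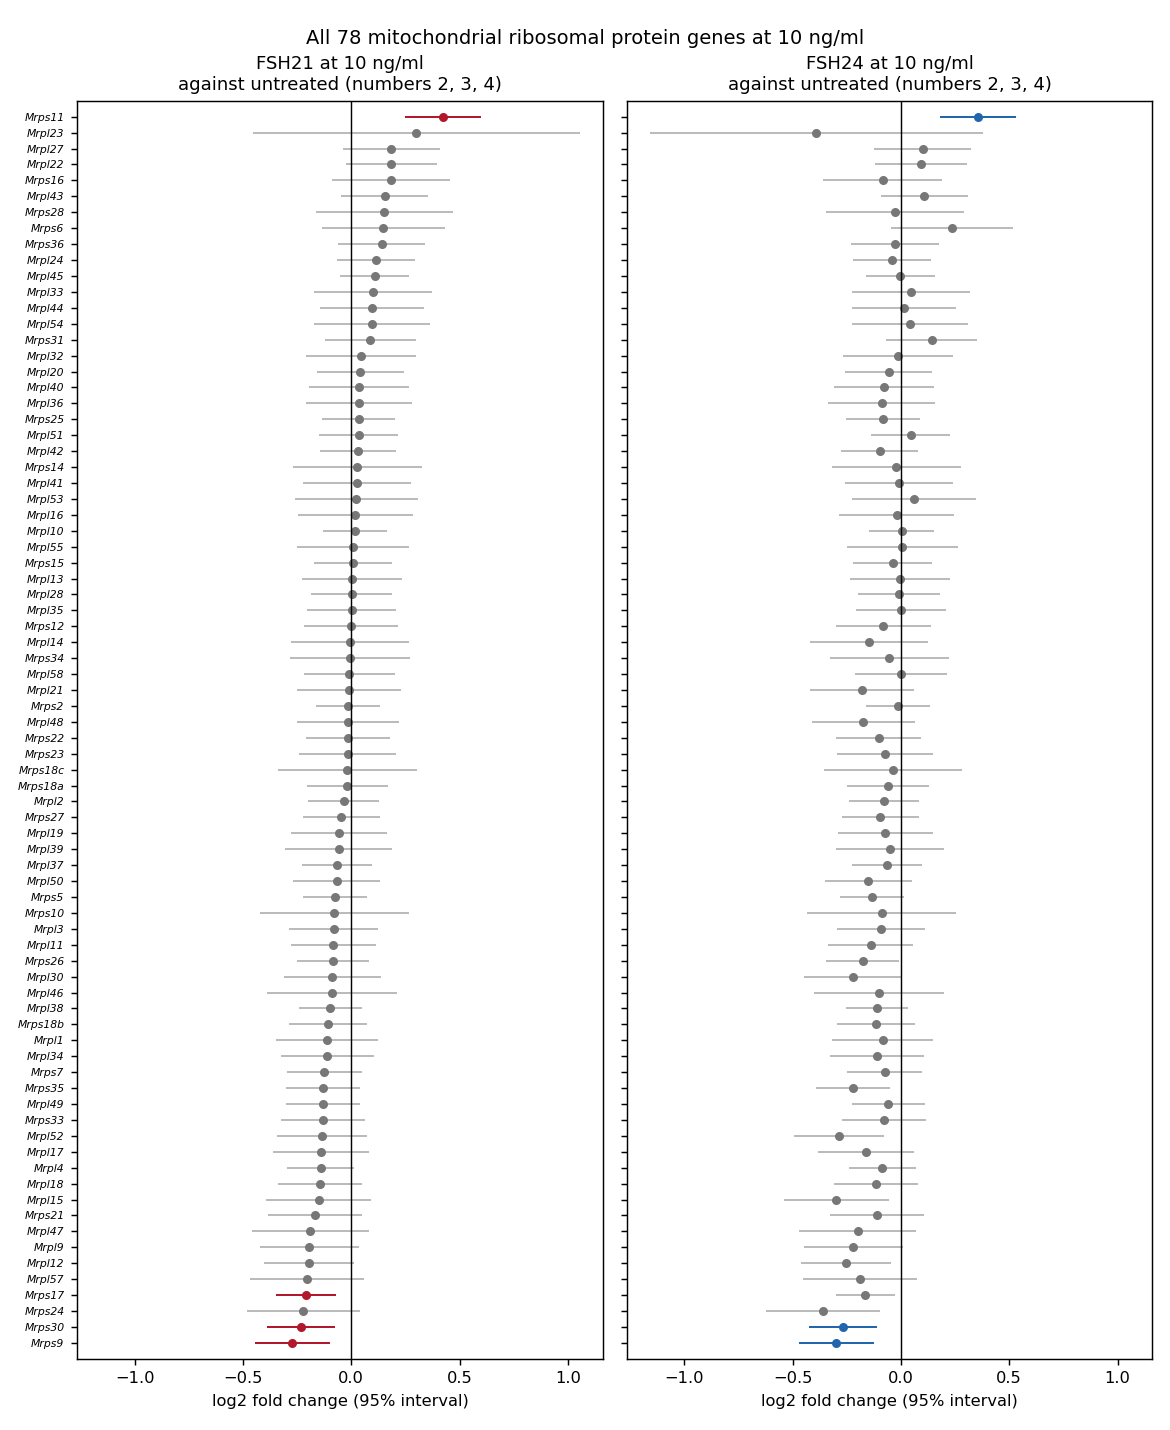
Log2 fold changes over untreated libraries 2, 3 and 4 (points) with 95% intervals (lines) of the 78 genes, for FSH21 (left) and FSH24 (right) at 10 ng/ml, ordered by the value with FSH21; coloured genes were called at an adjusted p under 0.05. Mrps11 stands at 0.42 and 0.36, most other genes lie near 0, and the interval of Mrpl23 is the widest.

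The 250 bases before and 50 after the start of a gene were taken as its promoter window from RefSeq (GRCm38.p6), which held 69 of the 78 members. The windows of the called genes are shown because these genes were set apart by the data, with that of Mrps12, the small subunit protein at the decoding centre, as an example of a member with motifs of 2 kinds. Sequences run 5′ to 3′ on the strand of the gene, and capitals mark matches to the motifs searched.
Mrps11, chr7:78782881-78783180, plus strand: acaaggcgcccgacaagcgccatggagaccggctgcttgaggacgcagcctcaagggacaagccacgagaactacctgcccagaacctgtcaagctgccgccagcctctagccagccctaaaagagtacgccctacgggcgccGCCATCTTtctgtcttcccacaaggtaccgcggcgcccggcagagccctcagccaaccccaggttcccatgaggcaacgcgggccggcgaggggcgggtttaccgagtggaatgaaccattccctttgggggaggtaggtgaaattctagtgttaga
Mrps9, chr1:42850983-42851282, plus strand: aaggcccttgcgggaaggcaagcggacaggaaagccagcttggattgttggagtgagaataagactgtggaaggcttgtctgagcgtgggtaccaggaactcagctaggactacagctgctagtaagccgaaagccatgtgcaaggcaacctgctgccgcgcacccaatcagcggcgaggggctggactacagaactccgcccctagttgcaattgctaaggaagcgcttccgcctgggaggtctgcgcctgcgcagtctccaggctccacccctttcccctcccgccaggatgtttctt
Mrps30, chr13:118387203-118387502, minus strand: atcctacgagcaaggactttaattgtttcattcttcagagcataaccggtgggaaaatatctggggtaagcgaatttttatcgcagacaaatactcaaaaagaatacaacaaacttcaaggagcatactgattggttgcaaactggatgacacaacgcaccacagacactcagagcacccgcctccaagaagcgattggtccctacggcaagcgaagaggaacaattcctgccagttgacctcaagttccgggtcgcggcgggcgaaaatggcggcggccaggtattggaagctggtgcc
Mrps17, chr5:129715247-129715546, plus strand: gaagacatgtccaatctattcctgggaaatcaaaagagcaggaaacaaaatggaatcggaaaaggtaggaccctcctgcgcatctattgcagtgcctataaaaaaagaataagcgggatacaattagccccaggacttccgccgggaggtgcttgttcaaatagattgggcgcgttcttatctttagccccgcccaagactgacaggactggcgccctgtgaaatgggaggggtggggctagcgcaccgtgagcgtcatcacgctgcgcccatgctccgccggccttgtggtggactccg
Mrps12, chr7:28741772-28742071, minus strand: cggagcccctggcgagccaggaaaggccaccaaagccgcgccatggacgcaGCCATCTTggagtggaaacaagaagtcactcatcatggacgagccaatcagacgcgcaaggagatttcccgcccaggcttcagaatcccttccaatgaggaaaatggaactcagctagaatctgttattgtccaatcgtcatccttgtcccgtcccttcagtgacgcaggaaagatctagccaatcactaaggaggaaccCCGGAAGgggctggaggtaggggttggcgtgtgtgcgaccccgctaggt

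On both strands, CCGGAAG, the core bound by GABPA and other ETS factors, was searched, with AAGATGGC for YY1, CGCATGCG for NRF1 and CACGTG for the E-box that MYC and other factors bind. GABPA and NRF1 are known activators of nuclear genes for mitochondrial proteins. CCGGAAG was in the window of 26 of 69 members (37.7%), against 9.93% of 27025 genes in the table and 17.5% of those tested here. AAGATGGC was in 12 members (17.4%), against 3.19% of all genes and 4.61% of those tested. CGCATGCG was in 7 members (10.1%), against 2.07% and 3.76%, and CACGTG in 5 members (7.25%), against 8.09% and 11.2%. The letters AAG end the first motif and open the second, but no member had overlapping matches to them, and 3 members had both. Of the called genes, Mrps11 held 1 match, to AAGATGGC on the opposite strand, centred at -103.5 bases from its start. The window of Mrps11 lies within the neighbouring Mrpl46, and this match is on the strand of Mrpl46. The windows printed for Mrps9, Mrps30 and Mrps17 held none of the 4 motifs. A match is a run of letters and was not tested as a binding site.

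In untreated follicles the members drew very different numbers of counts. Over the 6 untreated libraries the mean CPM of a member ran between 2.98 and 63.8, with a median of 26.3. Members with the most counts were Mrps25 (63.8 ± 3.29 CPM), Mrpl9 (58.9 ± 6.36 CPM), Mrps5 (51.7 ± 2.33 CPM), Mrpl38 (50.1 ± 2.38 CPM) and Mrpl12 (48.8 ± 4.33 CPM; SD, n = 6 each). Those with the fewest were Mrpl23 (2.98 ± 0.869 CPM), Mrpl53 (10.9 ± 1.00 CPM) and Mrps28 (11.2 ± 1.69 CPM). Mrpl23, a protein at the mouth of the exit tunnel, has a pseudogene copy, Mrpl23-ps1, that was counted apart and drew 331 to 539 counts per library, so reads may be split between the gene and its copy. Mrps25 shares 69.8% and Mrpl53 88.0% of its exon bases with other genes, and their counts are uncertain for that reason. Among untreated libraries the coefficient of variation had a median of 7.75% and was under 10% for 51 members, with Mrpl10 the lowest (1.31%) and Mrpl23 the highest (29.1%).

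Levels compare between genes only per length. Per kilobase of the longest coding transcript in GENCODE M21, the members ran between 4.05 and 72.9 CPM per kb, with a median of 18.9. Mrps21 (72.9 ± 5.48), Mrpl52 (59.3 ± 3.64), Mrpl42 (54.1 ± 4.18), Mrpl12 (37.1 ± 3.29) and Mrps36 (35.8 ± 2.39 CPM per kb; SD, n = 6) were highest, and Mrpl23 (4.05 ± 1.18), Mrpl47 (4.08 ± 0.515) and Mrpl19 (4.17 ± 0.277) lowest. Mrpl12, Mrps36, Mrpl33 (35.7 ± 2.66), Mrpl9 (35.6 ± 3.84), Mrpl38 (35.5 ± 1.69) and Mrpl2 (35.01 ± 1.72) did not differ beyond their spread, nor did the 3 lowest and Mrps14 (4.64 ± 0.739). Bacterial-type proteins had medians of 20.4 CPM per kb in the large subunit (30 genes) and 20.2 in the small (16 genes), and proteins classed as mitochondrion-specific 17.1 in the large subunit (21 genes) and 20.2 in the small (10 genes). Mrps18a and Mrps18b were placed in the second class although they are relatives of bacterial S18, of which Mrps18c was taken as the bacterial-type member. The ranges of the classes overlapped widely. Which transcript of a gene the follicles used was not measured.

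**Figure D3:**
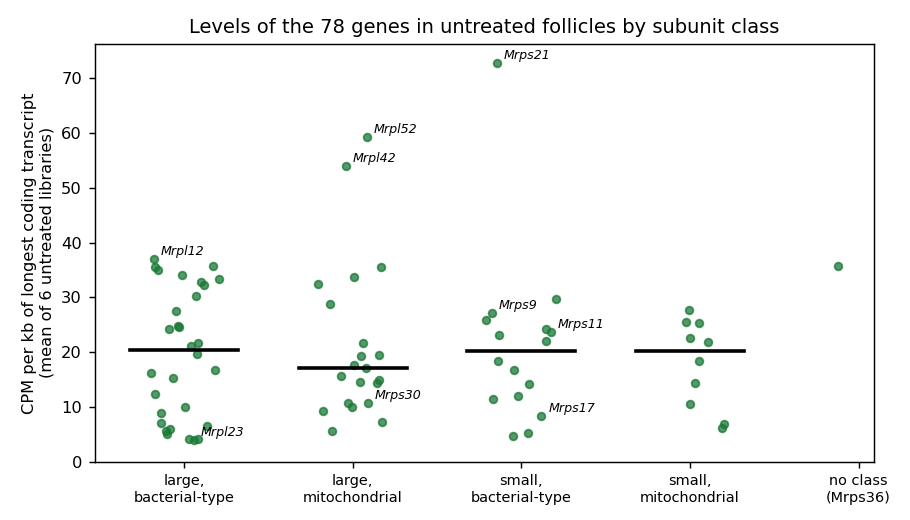
Mean CPM per kilobase (kb) of the longest coding transcript over the 6 untreated libraries, 1 point per gene, by subunit and by whether the protein is classed as bacterial-type or mitochondrion-specific; black lines are class medians, and Mrps36 is in no class. The 4 class medians lie between 17.1 and 20.4, and Mrps21 is highest at 72.9.

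Members with special roles were measured as follows. In untreated libraries Mrpl12, a stalk protein that also binds the mitochondrial RNA polymerase, was at 48.8 ± 4.33 CPM, and Mrpl10, which anchors the stalk, at 41.5 ± 0.545 CPM (SD, n = 6). Mrpl45, which ties the ribosome to the inner membrane, was at 36.4 ± 2.27 CPM, and Mrpl58, a hydrolase that frees stalled peptides, at 24.3 ± 2.47 CPM. The 3 genes related to bacterial S18 were at 28.6 ± 1.38 CPM for Mrps18a, whose protein sits in the large subunit, 27.5 ± 0.912 CPM for Mrps18b and 13.7 ± 2.42 CPM for Mrps18c. Mrps36, whose protein is now placed in the oxoglutarate dehydrogenase complex despite its name, was at 25.1 ± 1.68 CPM. Mrps12 was at 21.4 ± 1.32 CPM. None of these genes was called in any of the comparisons.

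The summed level of the 78 genes overlapped between groups at 10 ng/ml. The sum was 2157, 2136 and 2222 CPM with FSH21 at 10 ng/ml, 2101, 2171 and 2040 CPM with FSH24 and 2302, 2138 and 2242 CPM in untreated libraries 2, 3 and 4. As means these were 2172 ± 44.9, 2104 ± 65.4 and 2227 ± 83.1 CPM (SD, n = 3), or 0.218%, 0.211% and 0.224% of all counts. The 83 cytosolic ribosomal protein genes, whose products build the other ribosome of the cell, summed to 17814 ± 1554 CPM with FSH21 and 17436 ± 1896 CPM with FSH24, against 25728 ± 1660 CPM untreated, without overlap. Of 82 cytosolic genes tested, 69 were called lower with FSH21 and 71 with FSH24, with medians of -0.54 and -0.58 on the log2 scale, and none higher. The 78 nuclear genes of the respiratory chain and ATP synthase, among which are the partners of the proteins the mitochondrial ribosome makes, had 0 called higher and 1 lower with FSH21 and 0 with FSH24, with medians of 0.02 and -0.03. The 1 gene, Ndufb5, is named after its value was seen, and 0 were called with FSH21 without any 1 of the 6 libraries. For FSH24, edgeR's quasi-likelihood test gave an unadjusted p under 0.05 for 2 genes higher and 4 lower. No test between lists was made, and the lists are described by these counts.

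**Figure D4:**
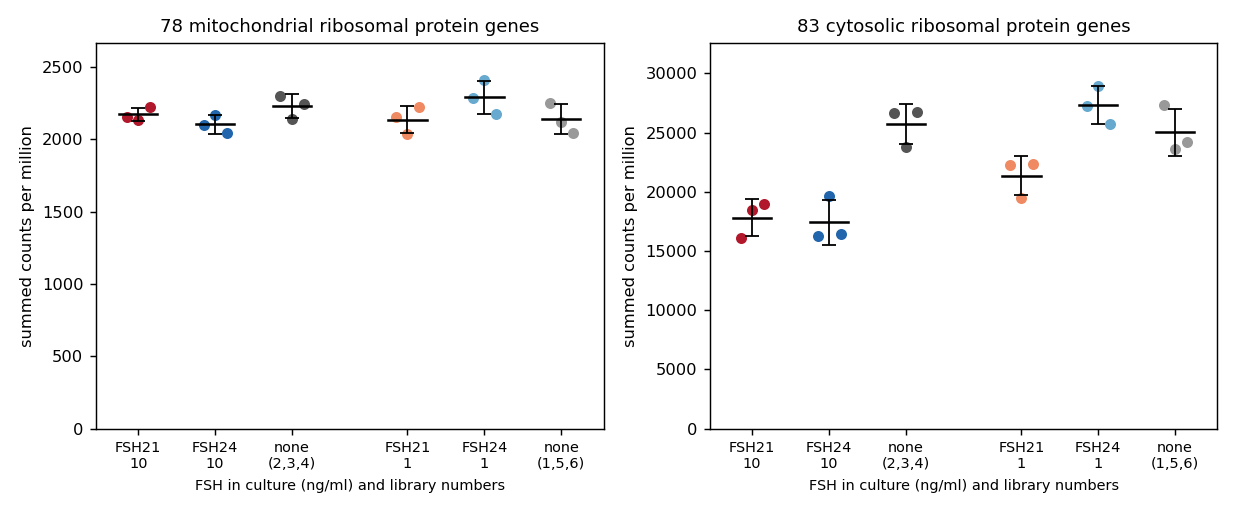
Summed CPM of the 78 mitochondrial (left) and 83 cytosolic (right) ribosomal protein genes in each library (points), with the group mean (line) and SD (bars, n = 3); the axis gives FSH form and dose in ng/ml, and axes start at 0. The mitochondrial sums lie between 2034 and 2407 CPM in all libraries, and the cytosolic sums with 10 ng/ml lie below those of all untreated libraries.

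Markers of the cell types moved in part with these comparisons. All 10 oocyte markers had log2 fold changes below 0 with each form at 10 ng/ml, none called, and 1 of 10 with FSH21 and 2 of 10 with FSH24 had an unadjusted p under 0.05. Their summed level was 3913 to 4394 CPM with FSH21 and 3918 to 4196 CPM with FSH24, against 4463 to 4677 CPM untreated. Untreated libraries 1, 5 and 6 were at 3652 to 4301 CPM. In untreated libraries 2, 3 and 4 against 1, 5 and 6 all 10 oocyte markers lay above 0, with a median of 0.21, none called and 5 at an unadjusted p under 0.05. Summed granulosa markers were 7525 to 8162 CPM with FSH21 and 7126 to 7788 CPM with FSH24, against 6683 to 8135 CPM untreated. Of the 8 granulosa markers, 2 were called higher and 1 lower with each form. Of the 6 theca and steroidogenic markers, 2 were called higher with each form. That list holds steroid synthesis genes such as Cyp11a1 and Star, so its calls cannot be read as theca cells alone. All 7 stroma markers lay below 0 with each form and none was called, with sums of 2501 to 3316 CPM with FSH21 and 2664 to 3749 CPM with FSH24, against 2668 to 4212 CPM untreated. Of 5 RNAs that stay in the nucleus, 2 were called higher with FSH21 and 1 with FSH24. Whether cell make-up or RNA quality had a part in the calls of the members was not tested.

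At 1 ng/ml no member was called with either form. With FSH21, 0 of 78 passed, against 0.128% of all genes, and 0 members had an unadjusted p under 0.05 in either direction, where all genes gave 4.20% higher and 3.12% lower. DESeq2 also called 0. There were 40 log2 fold changes above 0 and 38 below, and the median was 0.00, against 0.00 over all genes. The genes with the smallest p were Mrpl54, a large subunit protein, with 24.5, 18.3 and 22.4 CPM with FSH21 and 18.5, 19.96 and 16.97 CPM untreated, with overlap (log2 fold change 0.23, SE 0.13), Mrps17 (-0.11, SE 0.06) and Mrps22 (0.15, SE 0.09), all at adjusted p of 0.769 or more. In humans, variants of the gene for MRPS22 are known in ovarian failure. The 95% intervals lay within 0.5 of 0 for 77 of 78 members, all but Mrpl23.

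With FSH24 at 1 ng/ml, 0 of 78 members were called, against 0% of all genes, and DESeq2 called 0 as well. Most members lay slightly above the untreated libraries, 69 above 0 and 9 below, with a median of 0.11, against 0.00 over all genes. At an unadjusted p under 0.05 there were 6 higher, against 3.23% of all genes, and 0 lower, against 2.74% of all genes. The smallest p belonged to Mrpl13, a large subunit protein of bacterial descent, at 33.3, 33.9 and 28.1 CPM with FSH24 and 28.4, 21.6 and 23.5 CPM untreated, where the lowest treated and the highest untreated library overlapped (log2 fold change 0.37, SE 0.11). Mrpl11, at the base of the stalk, was at 23.2, 24.5 and 21.4 CPM with FSH24 and 20.1, 19.0 and 18.7 CPM untreated, without overlap (0.26, SE 0.09). Mrpl28 had a log2 fold change of 0.24 (SE 0.09), and all 3 had an adjusted p of 0.815 in edgeR's quasi-likelihood test. Without overlap, 10 of 78 members were higher, against 5.3% of all genes, and 0 lower, against 5.02%.

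In the same comparison 76 of 78 respiratory chain genes and 74 of 82 cytosolic ribosomal protein genes lay above 0, with medians of 0.16 and 0.13. None of them was called, and 25 and 5 of them were higher at an unadjusted p under 0.05 in edgeR's quasi-likelihood test. The summed level of the members was 2286, 2407 and 2177 CPM with FSH24 at 1 ng/ml, 2154, 2034 and 2221 CPM with FSH21 and 2251, 2123 and 2042 CPM in untreated libraries 1, 5 and 6, and the groups overlapped. FSH24 library 5 had the highest sum of all libraries, and untreated library 6 the lowest of the untreated. Without FSH24 library 5 the median was 0.07, and without untreated library 6 it was also 0.07. Of the 5 RNAs that stay in the nucleus, 4 lay below 0 in this comparison, with a median of -0.19 and none called, and their sums were 791 to 1074 CPM with FSH24 and 987 to 1159 CPM untreated. FSH24 library 5 was the one with the lowest of these sums. Their part in the values of the members was not tested.

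**Figure D5:**
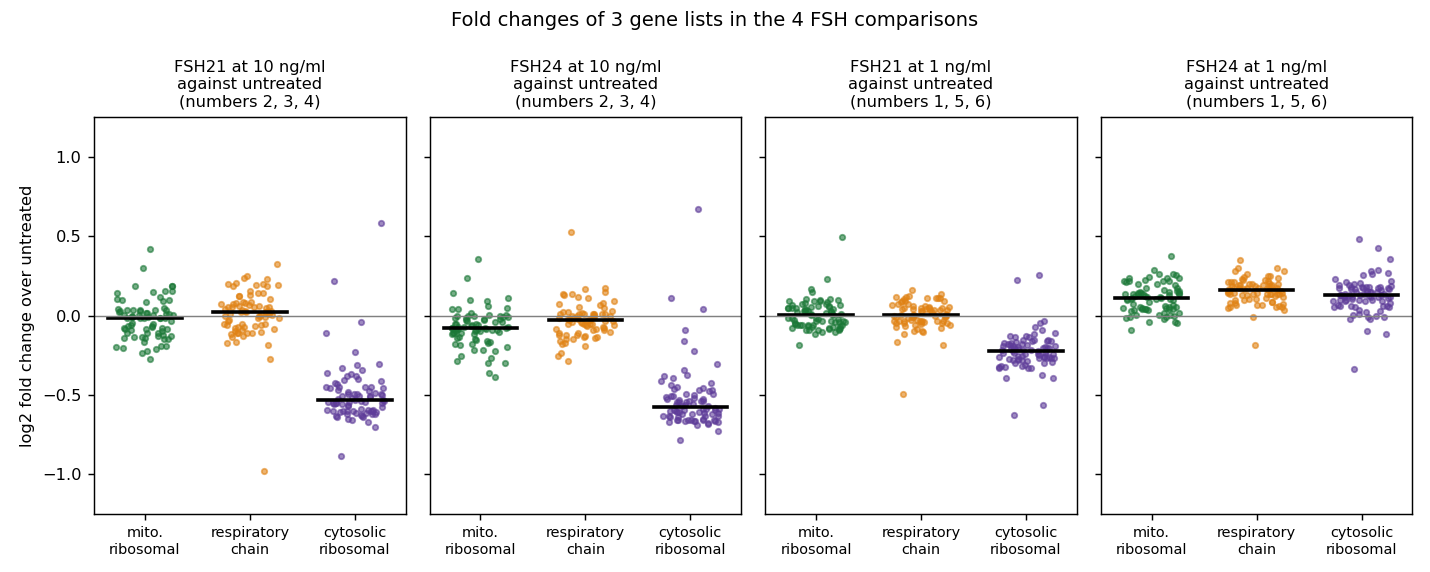
Log2 fold changes over the untreated libraries of the same numbers for the mitochondrial ribosomal (78 genes), nuclear respiratory chain (78 genes) and cytosolic ribosomal (82 genes) lists, 1 panel per comparison, with points for genes and black lines for medians. The mitochondrial medians are -0.01, -0.08, 0.00 and 0.11 from left to right, next to cytosolic medians of -0.54, -0.58, -0.22 and 0.13; 3 points of an Atp5o row at -6.78, -3.84 and 1.61 lie outside the axis.

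The forms were also compared directly. At 10 ng/ml, FSH21 against FSH24 gave 0 called members, against 0% of all genes, and DESeq2 called 0. At an unadjusted p under 0.05 there was 1 member higher with FSH21, against 1.01% of all genes, and 0 lower, against 1.18% of all genes. That member was Mrps16, a small subunit protein, at 16.6, 14.2 and 16.9 CPM with FSH21 and 14.1, 14.8 and 10.8 CPM with FSH24, with overlap (log2 fold change 0.27, SE 0.13, adjusted p = 1). Mrpl23 was next, at 5.14, 3.63 and 2.92 CPM with FSH21 and 1.24, 3.12 and 2.87 CPM with FSH24, also with overlap (0.69, SE 0.36). The 95% interval lay within 1.41-fold for 76 of 78 members, and the median was 0.04 on the log2 scale.

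At 1 ng/ml, FSH21 against FSH24 gave 0 called members, against 0.0107% of all genes, and DESeq2 called 0. Of the 78, 69 were lower with FSH21, with a median of -0.10, against 0.00 over all genes. At an unadjusted p under 0.05 there were 0 higher, against 4.97% of all genes, and 15 lower, against 4.48% of all genes. Of these 15, 14 had large subunit symbols. The smallest p belonged to Mrpl10, which was at 40.9, 41.8 and 36.8 CPM with FSH21 and 46.1, 49.8 and 43.1 CPM with FSH24, without overlap (log2 fold change -0.22, SE 0.07, adjusted p = 0.293). Without overlap, 15 of 78 members were lower with FSH21, against 7.09% of all genes, and 0 higher, against 7.77%. Mrpl4, which lines the exit tunnel, was at 43.1, 38.4 and 40.6 CPM with FSH21 and 49.6, 48.1 and 43.0 CPM with FSH24, where a library of each form met (-0.21, SE 0.07, adjusted p = 0.358). In the same comparison 77 of 78 respiratory chain genes and 80 of 82 cytosolic ribosomal protein genes were lower with FSH21, with 20 and 68 of them at an unadjusted p under 0.05. This comparison and that of FSH24 with untreated libraries share the 3 FSH24 libraries. All 5 RNAs that stay in the nucleus lay above 0 here, with a median of 0.34 and 1 at an unadjusted p under 0.05, and their sums were 1130 to 1319 CPM with FSH21 and 791 to 1074 CPM with FSH24, without overlap. Of the 8 granulosa markers 7 lay above 0 and 1 was called higher. The part of these markers in the lower values of the members was not tested.

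No member was called for a difference between doses. Dose and number set go together, so a difference between doses cannot be told apart from a difference in response between the sets. For FSH21, the effect at 10 ng/ml against that at 1 ng/ml gave 0 calls, against 0.272% of all genes, and 0 by DESeq2, with 1 member higher at an unadjusted p under 0.05 (Mrps11) and 0 lower, against 3.80% and 3.21% of all genes. For FSH24 there were 0 calls, against 2.45% of all genes, and DESeq2 called 1, Mrps24. At an unadjusted p under 0.05 there was 1 higher (Mrps11), against 8.33% of all genes, and 13 lower, against 6.59% of all genes. In all, 73 of 78 differences were below 0 for FSH24, with a median of -0.20, against 0.00 over all genes. In the same difference 9 of 10 oocyte markers were below 0, with a median of -0.15 and 2 lower at an unadjusted p under 0.05, and the 5 RNAs that stay in the nucleus had a median of 0.69, with 2 higher at that p. Their part in the differences of the members was not tested. Mrps24, a small subunit protein at the entry of the message that is described because DESeq2 called it, was at 16.9, 13.3 and 15.2 CPM with FSH24 at 10 ng/ml and 22.4, 17.6 and 18.3 CPM in untreated libraries 2, 3 and 4, and at 21.7, 21.03 and 17.4 CPM with FSH24 at 1 ng/ml and 17.7, 17.2 and 16.3 CPM in untreated libraries 1, 5 and 6. Its effect at 10 ng/ml minus that at 1 ng/ml was -0.59 on the log2 scale in edgeR's quasi-likelihood test (SE 0.17, adjusted p = 0.0841), which was not called. Of the cytosolic ribosomal protein genes, 55 of 82 were called lower in the FSH24 difference between doses. The untreated libraries 2, 3 and 4 against 1, 5 and 6 gave 0 called members, against 0% of all genes, 0 by DESeq2, and 4 higher and 0 lower at an unadjusted p under 0.05, against 2.79% and 2.65%.

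Other genes of mitochondrial gene expression were looked at beside the members at 10 ng/ml, where 4.21% of all genes were called lower and 5.96% higher with FSH21, and 3.30% lower and 5.12% higher with FSH24. Of 24 genes for the assembly of the mitochondrial ribosome, 3 fell and 0 rose with each form. They were C1qbp, a matrix protein needed for mitochondrial translation, Rbfa, which acts in the maturation of the small subunit, and Noa1, a GTPase of its assembly. C1qbp was at 62.2 ± 4.26 CPM with FSH21 and 58.1 ± 5.75 CPM with FSH24, against 82.3 ± 5.03 CPM untreated (SD, n = 3), with log2 fold changes of -0.40 (SE 0.08, adjusted p = 0.00318) and -0.50 (SE 0.08, adjusted p = 0.000706). Rbfa was at 34.8 ± 2.97 CPM with FSH21 and 35.3 ± 3.31 CPM with FSH24, against 46.0 ± 4.31 CPM untreated (-0.40, adjusted p = 0.00493, and -0.38, adjusted p = 0.00823). Noa1 was at 19.5 ± 0.898 CPM with FSH21 and 19.6 ± 2.51 CPM with FSH24, against 25.4 ± 1.90 CPM untreated (-0.38, adjusted p = 0.0175, and -0.38, adjusted p = 0.0219), and its call was lost in 4 of the 6 fits without 1 library for each form.

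Of 16 translation factors, 0 were called with FSH21 (edgeR's unadjusted p under 0.05 for 0 higher and 2 lower) and 1 lower with FSH24, the membrane insertase Oxa1l (-0.23, SE 0.06, adjusted p = 0.0297, against -0.20 and 0.0531 with FSH21). Of 17 mitochondrial aminoacyl-tRNA synthetases, which load the transfer RNAs, 0 were called with either form, with 3 higher and 1 lower with FSH21 and 0 higher and 1 lower with FSH24 at an unadjusted p under 0.05. Of 11 genes for transcription and replication of mitochondrial DNA, 1 fell with each form, the transcription factor Tfb2m, at 21.9 ± 1.198 CPM with FSH21 and 22.2 ± 2.24 CPM with FSH24, against 26.7 ± 1.33 CPM untreated (-0.29, adjusted p = 0.0244, and -0.26, adjusted p = 0.0446). None of the 13 protein genes of the mitochondrial genome was called, with 0 higher and 1 lower at an unadjusted p under 0.05 with FSH21 and none with FSH24. None of the 5 ribosome subunits under other symbols was called, with 1 lower at an unadjusted p under 0.05 with FSH21 and none with FSH24. Without 1 library, the calls of Oxa1l and Tfb2m with FSH24 were each kept in 2 of 6 fits. The highest adjusted p in edgeR's quasi-likelihood test was 0.129 for Oxa1l and 0.164 for Tfb2m. With FSH21, the call of Tfb2m was kept in 4 of 6 such fits.

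Among 12 regulators of nuclear genes for mitochondrial proteins, Myc fell most. Myc, a transcription factor of growth and ribosome production, was at 50.6 ± 4.01 CPM with FSH21 and 54.2 ± 5.58 CPM with FSH24 at 10 ng/ml, against 119 ± 7.53 CPM untreated (SD, n = 3), with log2 fold changes of -1.24 (SE 0.09, adjusted p = 1.23e-07) and -1.14 (SE 0.09, adjusted p = 5.60e-07). At 1 ng/ml Myc was at 92.3 ± 8.26 CPM with FSH21 and 113 ± 10.5 CPM with FSH24, against 134.5 ± 9.29 CPM untreated, and fell with FSH21 (-0.54, SE 0.09, adjusted p = 0.0265) and was not called with FSH24 (-0.25, SE 0.09, adjusted p = 0.815). FSH21 against FSH24 at 1 ng/ml gave -0.30 for Myc (SE 0.09, adjusted p = 0.274). Gabpb2, a partner of GABPA, rose slightly with both forms at 10 ng/ml (0.22, adjusted p = 0.0122 with FSH21, and 0.22, adjusted p = 0.0139 with FSH24). Pprc1, a coactivator of the same pathway, fell with FSH21 (-0.28, SE 0.08, adjusted p = 0.0371) and was at -0.16 (SE 0.08, adjusted p = 0.284) with FSH24. Between the forms at 10 ng/ml the difference was -0.12 for Pprc1 (SE 0.08) and 0.03 for Oxa1l (SE 0.06), both at adjusted p = 1. Calls of Gabpb2 and Pprc1 were lost without single libraries, with an adjusted p of up to 0.0973 for Gabpb2 with FSH24 and 0.190 for Pprc1 with FSH21.

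By position, the members lay on 17 chromosomes, with 11 of them on chromosome 11. A protein-coding gene that starts within 1000 bases on the other strand was beside 33 of the 78, and 36 overlapped a gene on the other strand. Mrps9 (chr1:42851233-42905683, plus strand) and Mrps17 (chr5:129715497-129722556, plus strand) share no exon bases with another gene, and Mrps30 (chr13:118378381-118387252, minus strand) shares 9.35% with others. Of the members, 10 share more than 20% of their exon bases with another gene.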

How the data were processed

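Polyadenylated RNA of 18 libraries, deposited as 72 samples of 4 lanes each, was analysed. The deposited table held expected counts, 1 column per library with lanes merged, per the file headers. STAR 2.7 and the mouse build mm10 are named in the submitters' processing notes. Annotation, counter version and strandedness are not given in the sources used here. Values were rounded to whole numbers, since 33.9% of non-zero values were not whole, and rows were kept by edgeR's filterByExpr with a minimum count of 10.

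The test was the quasi-likelihood test of edgeR 4.0.16 (R 4.3.3, limma 3.58.1) with robust estimation, TMM scaling and no block, over 18 libraries in 6 groups. Its p-values were adjusted by Benjamini-Hochberg over 18727 genes, and SE is the log2 fold change over the root of F. The script was tested on simulated data. Alternatives were DESeq2 1.42.0, RLE factors, no filter, fits of only the groups compared, non-robust estimation, a replicate block and leaving out each library. Positions and lengths are from GENCODE M21 (GRCm38), counted from 1.

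The members and the gene lists were chosen with earlier results of these data known. Named were called members (up to 8 per direction), otherwise those with the smallest p, members of highest and lowest CPM, members with special roles, and called pathway genes. Same-numbered libraries met the rule for pairing (every correlation above 0.1) in only the FSH21 comparison at 10 ng/ml, at 0.19, 0.21 and 0.13 for numbers 2, 3 and 4. There the block left the calls of the members the same in number.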

Additional observations from a re-analysis of the deposited data

How the results depend on the processing

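With FSH21 at 10 ng/ml, where 4 members were called, 2 were called without the low-count filter, 2 with only the 2 groups compared, and 1 to 2 without single libraries. With FSH24 at 10 ng/ml, where 3 were called, there were 5 with the replicate block, 1 with only the 2 groups compared, and 1 to 5 without single libraries. For the FSH24 difference between doses, where 0 were called, DESeq2 called 1, the replicate block 1, and the fits without single libraries 0 to 1. The remaining counts of called members, all 0, were 0 under every alternative run. Mrps11 was called in all 6 other fits and all 6 leave-one-out fits for each form. The cause of the changes was not tested.

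The replicate block changed no other count of called members. The numbers of the FSH24 and 1 ng/ml groups did not meet the rule for pairing. Even so, each of the 6 libraries of every comparison correlated best with the library of its own number. By label, each number holds an untreated, an FSH21 and an FSH24 library, but what a number stands for is not said. The main test did not use this pairing. The block could not be fitted between the untreated sets, which share no numbers.

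The median log2 fold change of the members with FSH21 at 10 ng/ml was -0.01 and lay between -0.063 and -0.00016 without single libraries, with the largest shift without untreated library 3. The other medians moved by less than the spread between libraries. For 16 members named for their level or role, the sign of the log2 fold change turned in 42 of 384 fits at 10 ng/ml, all with values of at most 0.11 in size. One of them, Mrpl9, was called lower with FSH24 under the replicate block. At these depths the median SE of a member was 0.10 on the log2 scale. In checks chosen after seeing the data, 54 to 71 of the cytosolic ribosomal protein genes were called at 10 ng/ml under all alternatives.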

Other observations

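Between the 2 sets of untreated libraries the summed level of the 78 genes overlapped. Untreated libraries 2, 3 and 4 summed to 2227 ± 83.1 CPM and untreated libraries 1, 5 and 6 to 2139 ± 105 CPM (SD, n = 3). In that comparison 58 of 78 members lay above 0, with a median of 0.05, against -0.004 over all genes. That median was larger in size than the -0.01 of the members with FSH21 at 10 ng/ml. Pseudogene copies were counted in rows of their own. Mrpl48-ps drew 112 to 207 counts per library, and the 3 copies of Mrps36 drew at most 5 each in a library.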
